A study of Mus musculus with 4 samples.

Results

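The Sox genes other than Sox2 were followed in murine embryonic stem cells as the subset of genes chosen by name: every probe set whose single platform gene symbol was Sox1, Sox3, Sox4, Sox7, Sox11, Sox12, Sox13, Sox15, Sox17 or Sox18. These 10 genes, of 18194 genes named on the array, had 28 of its 45101 probe sets. Sox proteins are transcription factors that bind and bend DNA through an HMG box, a domain related to that of the sex-determining gene Sry. They fall into subgroups by the sequence of this domain, and many act on an element together with a partner protein, as Sox2 does with the POU factor Oct4 (Pou5f1) in embryonic stem cells. Within the list, Sox1 and Sox3 belong with Sox2 to the SoxB1 subgroup of neural progenitors, Sox4, Sox11 and Sox12 to SoxC, Sox13 to SoxD, Sox7, Sox17 and Sox18 to the endodermal and endothelial SoxF subgroup, and Sox15 to SoxG.

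The cells were CM7/1 embryonic stem cells made to overexpress Hey1 or Hey2, repressors of the basic helix-loop-helix class that act downstream of Notch receptors. In each of these lines 1 array came from cells given 1000 ng/ml doxycycline for 48 h (Hey1 induced, Hey2 induced), and 1 from control cells without induction (Hey1 uninduced, Hey2 uninduced). All 4 arrays were hybridised with biotin-labelled total RNA. The submitters' design note gives no replicates. No difference between 2 arrays can therefore be checked against replicates, and none has a p-value. How precise the values are is limited by there being only 4 arrays. The sources used here do not say which promoter drives the introduced genes or whether each line is a single clone.

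The deposited values are on the log2 scale after RMA, a method that corrects the background, brings all arrays to a single distribution and summarises the probes of a set. The single Hey1 probe set read 6.51 in the Hey1 array labelled induced and 6.73 in the Hey1 uninduced array. The Hey2 probe set read 4.34 in the Hey2 array labelled induced and 4.25 in the Hey2 uninduced array, below the level filter used here. The introduced genes were thus not seen at these probe sets, and nothing in the labels says whether the probe sets read the introduced transcripts. All directions below are those of the array labelled induced relative to its uninduced counterpart. The identity of the cells showed in 14 embryonic stem cell markers, all of which were above the filter, with a mean log2 value between 12.49 and 12.57 on the 4 arrays. Tcl1, which encodes a coactivator of the kinase Akt, and the transcription factor gene Tfcp2l1 had the largest mean differences among them, at -0.59 and -0.75 for Tcl1 and 0.03 and 0.55 for Tfcp2l1 in the Hey1 and Hey2 lines. With the mean of probe sets the Tfcp2l1 differences were -0.0083 and 0.27. In limma's test of a response shared by both lines, Tcl1 had an adjusted p of 0.237, and of 0.000147 with a trended robust prior variance. That prior called 433 of 12098 genes, where the main fit called 0. Of 10 fibroblast markers, which feeder cells would bring, 3 reached the filter.

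Each gene was represented by its brightest probe set (the one with the highest mean), and it was compared if it read at least 6.05, the median of the whole table, on 1 array or more. Of the 10 Sox genes 9 were compared, among 12098 genes in all, and Sox18 was not. The levels of different probe sets cannot be set against each other, so the order of the Sox genes by level was not read from these values.

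**Figure D1:**
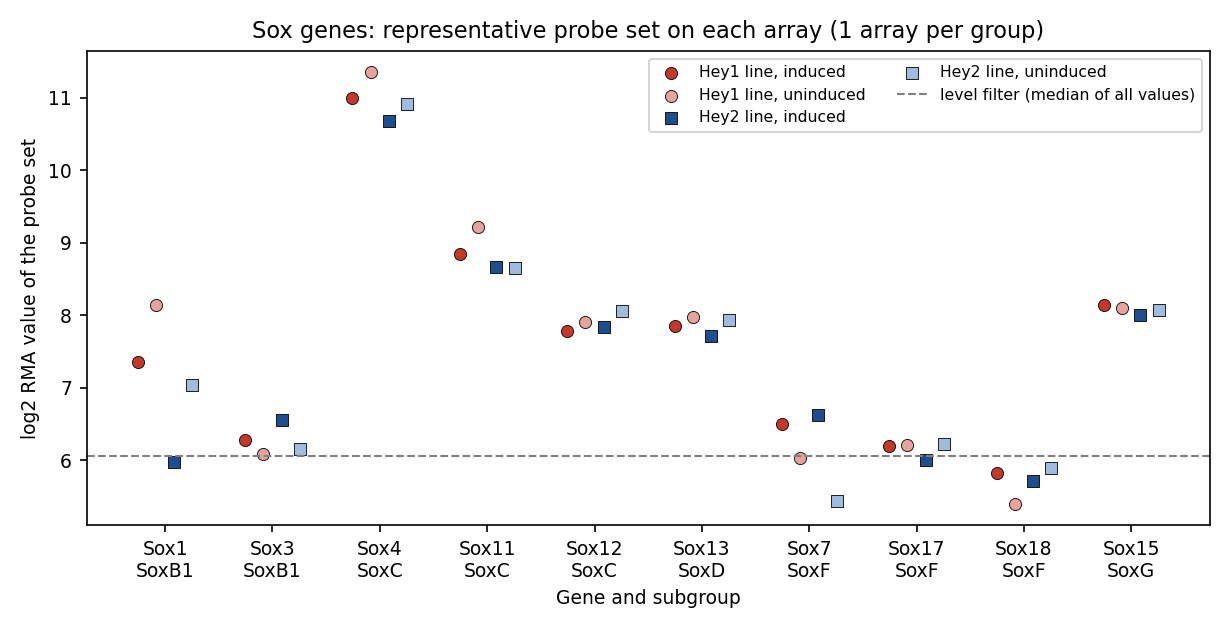
Log2 RMA value (vertical axis) of the representative probe set of each of the 10 Sox genes on the 4 arrays, with 1 point per array, grouped by gene and subgroup along the horizontal axis. The dashed line is the level filter at 6.05, which all 4 Sox18 points lie below. Sox1 was lower, and Sox7 and Sox3 were higher, in the array labelled induced than in the uninduced array of the same line.

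The largest differences among the compared Sox genes were a lower value of Sox1 and a higher value of Sox7, each in both lines. In the Hey1 line 0 of the 9 compared Sox genes differed by 2-fold or more between the array labelled induced and the uninduced array, where 0.471% of all compared genes did. In the Hey2 line 2 of 9 did, namely Sox1, which was lower, where 0.24% of all compared genes were lower by as much, and Sox7, which was higher, where 0.686% were. Lower values in both lines were read for 5 of the 9 (Sox1, Sox4, Sox12, Sox13 and Sox17), where 35.5% of all compared genes were lower in both, and higher values in both for 2 of the 9 (Sox3 and Sox7), where 28.1% of all were higher in both. The remaining 2 (Sox11 and Sox15) had opposite signs, as had 36.1% of all compared genes. Sox7 reached the level filter only in the arrays labelled induced, so its direction in these counts follows from the filter. The median difference of the 9 was -0.12 on the log2 scale for the Hey1 line and -0.22 for the Hey2 line, beside -0.01 and -0.02 over all compared genes. The Hey1 median turned to 0.09 with the uninduced array of the other line as reference and was -0.36 with a filter at the 75th percentile of values, which leaves Sox4 and Sox11. The Hey2 median was -0.07 with the mean of all probe sets of a gene and -0.11 with that filter. In bulk RNA fewer cells that express a gene and less of its RNA per cell cannot be told apart.

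Sox1 is among the earliest genes switched on when embryonic cells commit to neuroectoderm. Its probe set 1438729_at read 7.35 in the Hey1 array labelled induced and 8.14 in the Hey1 uninduced array, a difference of -0.78, or 1.72-fold lower. The Hey2 line gave 5.98 in the array labelled induced and 7.05 in the uninduced array, a difference of -1.07, or 2.09-fold lower. Each line was lower in its own labelled induced array, but the arrays of the 2 conditions overlapped, because the Hey1 array labelled induced still lay above the Hey2 uninduced array. The lines differed from the start: Sox1 was 2.13-fold lower in the uninduced Hey2 line (7.05) than in the uninduced Hey1 line (8.14), a difference of -1.09, slightly larger in size than those within the lines. With Hey2 uninduced as the array subtracted, the Hey1 difference turned to 0.31. The other Sox1 probe set, 1422205_at, moved less. It read 6.35 in the Hey1 array labelled induced and 6.36 in the Hey1 uninduced array, and 6.20 in the Hey2 array labelled induced and 6.57 in the Hey2 uninduced array. Its differences within the lines were -0.0093 and -0.36, so of these only the sign was shared with 1438729_at. Between the uninduced arrays 1422205_at was higher in the Hey2 line, by 0.21, which is opposite to the direction at 1438729_at.

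Of the other SoxB1 gene, Sox3, which is expressed with Sox1 in neural progenitors, the values were higher in the arrays labelled induced. Its probe set 1435192_at read 6.28 in the Hey1 array labelled induced and 6.09 in the Hey1 uninduced array. The Hey2 line gave 6.56 in the array labelled induced and 6.16 in the uninduced array. Both arrays labelled induced lay above both uninduced arrays, with differences of 0.19 and 0.40. A gap of this kind, higher in both arrays labelled induced, was seen in Sox3 and Sox7 among the 9 Sox genes and in 12.6% of all compared genes. Sox7 reached the filter only in the arrays labelled induced, so its gap follows from the filter. The other Sox3 probe set, 1450485_at, had differences of 0.41 and 0.21 in the Hey1 and Hey2 lines. It reached the filter only in the arrays labelled induced (6.23 for Hey1, 6.21 for Hey2), so its direction follows from the filter. All these values lay close to the level filter. Sox1 and Sox3 thus had differences of opposite sign within a subgroup, and Sox2, the third SoxB1 gene, differed by 0.13 and -0.0059.

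Sox4, Sox11 and Sox12 encode the SoxC proteins, activators in progenitors of neurons and mesenchyme. Sox4 had lower values in the arrays labelled induced in most of its probe sets. The brightest, 1433575_at, read 11.00 in the Hey1 array labelled induced and 11.35 in the Hey1 uninduced array. The Hey2 values were 10.68 in the array labelled induced and 10.91 in the uninduced array. The differences were -0.35 and -0.23, which is 1.27-fold and 1.17-fold lower. The arrays of the 2 conditions overlapped, since the Hey1 array labelled induced (11.00) lay above the Hey2 uninduced array (10.91). With Hey2 uninduced subtracted in its place, the Hey1 difference turned to 0.09. Of the 8 probe sets of Sox4, 6 reached the filter. In 4 of these 6 both lines were lower, where 33.8% of all single-symbol probe sets that reached the filter were. The 6 ranged from -0.43 to 0.03 for the Hey1 line and from -0.37 to 0.0009 for the Hey2 line. They were read from the same arrays, so they are not repeats of one another. Among the 4 was 1419157_at, with -0.43 in the Hey1 line. It reached the filter only in the Hey1 uninduced array (6.32), so its direction in the Hey1 line follows from the filter.

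Sox11 differed between the lines. Its probe set 1436790_a_at read 8.84 in the Hey1 array labelled induced and 9.21 in the Hey1 uninduced array, a difference of -0.38. The Hey2 values were 8.66 in the array labelled induced and 8.65 in the uninduced array, a difference of 0.0071. The Hey1 uninduced array stood above the other arrays, which lay between 8.65 and 8.84. The 5 probe sets of Sox11 that reached the filter ranged from -0.38 to 0.05 for the Hey1 line and from -0.10 to 0.28 for the Hey2 line. Of these, 0 were lower in both, where 33.8% of all single-symbol probe sets that reached the filter were. Sox12 read 7.79 in the Hey1 array labelled induced and 7.90 in the Hey1 uninduced array, and 7.84 in the Hey2 array labelled induced and 8.06 in the Hey2 uninduced array. Its differences of -0.12 and -0.22 were small, and its other probe set above the filter had -0.26 and -0.0023.

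Promoter sequence is shown for Sox1 and Sox4, whose values were lower in both lines, and for Sox11, the SoxC gene whose difference in the Hey2 line was close to 0. The letters searched, on both strands, were CACGTG, an E-box of the kind that Hey factors bind, and CACGCG, the related class C site described for the Hairy repressor of Drosophila. These motifs do not overlap one another in the windows shown. The windows are the 250 bases before the annotated start in RefSeq's mouse build GRCm38.p6, on the strand of the gene, and capitals mark a match. RefSeq windows were found for 6 of the 10 genes (Sox1, Sox4, Sox11, Sox12, Sox13 and Sox15). The labels do not state a build for the array's annotation.
Sox1, chr8:12395269-12395518, plus strand: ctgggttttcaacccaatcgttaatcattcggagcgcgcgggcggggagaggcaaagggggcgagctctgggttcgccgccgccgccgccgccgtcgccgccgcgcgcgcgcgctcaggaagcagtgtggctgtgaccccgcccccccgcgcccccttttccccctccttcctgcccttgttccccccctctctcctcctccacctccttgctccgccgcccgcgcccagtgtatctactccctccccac
Sox4, chr13:28953700-28953949, minus strand: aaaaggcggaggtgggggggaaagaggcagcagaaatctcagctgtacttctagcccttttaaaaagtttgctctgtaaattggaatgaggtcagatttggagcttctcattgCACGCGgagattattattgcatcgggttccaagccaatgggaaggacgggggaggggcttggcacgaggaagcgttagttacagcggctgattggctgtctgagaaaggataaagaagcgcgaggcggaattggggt
Sox11, chr12:27342719-27342968, minus strand: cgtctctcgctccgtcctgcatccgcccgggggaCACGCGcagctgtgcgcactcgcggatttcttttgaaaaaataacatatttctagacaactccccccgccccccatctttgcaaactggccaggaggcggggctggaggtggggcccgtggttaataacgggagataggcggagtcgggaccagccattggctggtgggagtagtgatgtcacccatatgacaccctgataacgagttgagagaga
The Sox4 window held 1 CACGCG, starting 137 bases before the start, and the Sox11 window held 1, starting 216 bases before it. The other windows, those of Sox1, Sox12, Sox13 and Sox15, held neither motif. Among all 32851 promoter windows of this length, 7.62% held CACGCG and 6.02% held CACGTG. The Sox1 window was 71.2% G and C, and that of Sox4 was 50.8%, beside a median of 52.4% over all windows. A match describes letters only.

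Among the SoxF genes, which act in endoderm and in endothelium, Sox7 stood apart. Its probe set 1416564_at read 6.51 in the Hey1 array labelled induced and 6.03 in the Hey1 uninduced array. In the Hey2 line it read 6.62 in the array labelled induced and 5.44 in the uninduced array. Both arrays labelled induced lay above both uninduced arrays, and they were close to each other, at a gap of 0.12. The differences were 0.48 (1.39-fold higher) in the Hey1 line and 1.18 (2.27-fold higher) in the Hey2 line. Both uninduced values lay below the level filter, so Sox7 was compared only through the arrays in which it was higher, and the size of its difference is uncertain. The lower uninduced value in the Hey2 line (5.44, against 6.03 in the uninduced Hey1 line) made up most of the gap between the differences of the lines. With the uninduced arrays exchanged between the lines, the Hey2 difference was 0.59 in place of 1.18 and the Hey1 difference 1.07 in place of 0.48. The second Sox7 probe set, 1432495_at, lay below the filter on all arrays, with differences of -0.17 and 0.10. The 3' minus 5' log2 difference of control transcripts is a measure of RNA quality. In the Hey2 line it was 0.96 in the array labelled induced against 0.67 in the uninduced array for Tfrc, and 1.56 against 1.33 for Pcx. For Actb it differed little, at 0.42 against 0.39, as for Gapdh, at 0.03 against 0.01. The corresponding Hey1 values were 0.84 against 0.95 for Tfrc and 1.43 against 1.38 for Pcx. They were 0.51 against 0.48 for Actb and 0.04 against 0.04 for Gapdh. The part of RNA quality in the Sox7 difference was not tested.

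Sox17, which is needed for definitive endoderm, read 6.19 in the Hey1 array labelled induced and 6.21 in the Hey1 uninduced array. Its Hey2 values were 6.01 in the array labelled induced and 6.23 in the uninduced array. The differences were -0.02 and -0.22, at values next to the level filter. Sox18, a gene of lymphatic endothelium, read 5.82 in the Hey1 array labelled induced and 5.40 in the Hey1 uninduced array, and 5.72 in the Hey2 array labelled induced and 5.90 in the Hey2 uninduced array. All 4 values lay below the filter, that is, Sox18 fell just outside it and Sox17 just inside. The second Sox17 probe set, 1429177_x_at, read between 3.34 and 3.87 on all arrays, far below the filter.

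Sox13 and Sox15 differed little. Sox13, a SoxD gene expressed in T cells of the gamma-delta lineage, read 7.86 in the Hey1 array labelled induced and 7.98 in the Hey1 uninduced array. Its Hey2 values were 7.71 in the array labelled induced and 7.93 in the uninduced array. Both arrays labelled induced lay below both uninduced arrays, with differences of -0.12 and -0.22. This held for 3 of the 9 Sox genes (Sox12, Sox13 and Sox17) and for 18.3% of all compared genes. Sox15, a gene expressed in embryonic stem cells and in muscle progenitors, read 8.14 in the Hey1 array labelled induced and 8.10 in the Hey1 uninduced array, and 8.01 in the Hey2 array labelled induced and 8.08 in the Hey2 uninduced array. Its differences of 0.05 and -0.07 were the smallest of the compared members in terms of the mean over the lines.

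**Figure D2:**
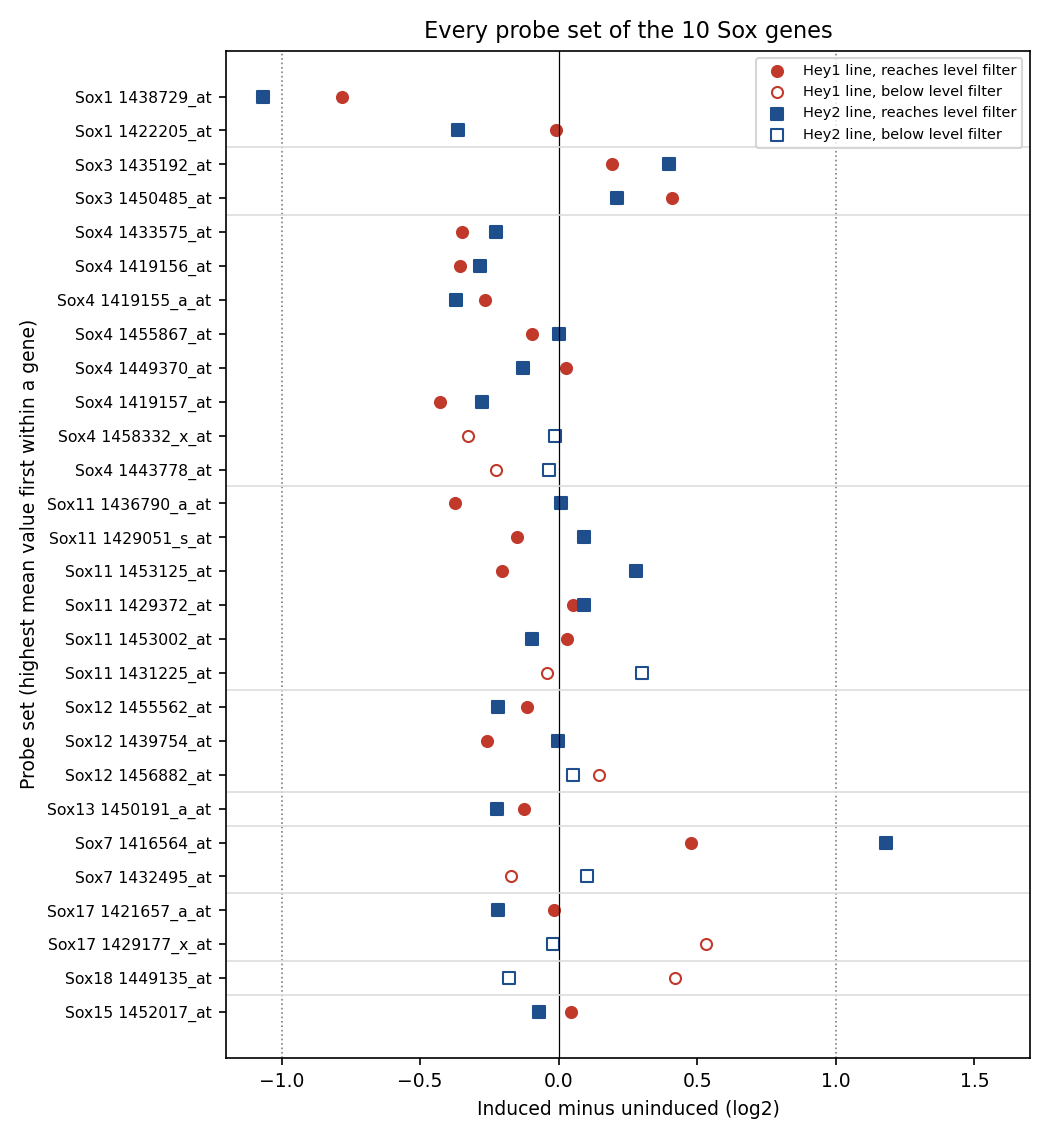
Difference between the arrays of a line, labelled induced minus uninduced (log2, horizontal axis), for each of the 28 probe sets of the 10 Sox genes, with circles for the Hey1 line and squares for the Hey2 line. Filled symbols are the 21 probe sets that reached the level filter and open symbols the 7 that did not. The Sox1 and Sox7 probe sets with the widest differences stand beside sister probe sets of the same genes nearer to 0, and dotted lines mark 2-fold.

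Over all 21 probe sets of the family that reached the filter, 10 were lower in both lines, 4 were higher in both and 7 had opposite signs. Among those lower in both, 1419157_at of Sox4 reached the filter only in the Hey1 uninduced array. Among those higher in both, 1450485_at of Sox3 and 1416564_at of Sox7 reached it only in the arrays labelled induced. Of all single-symbol probe sets that reached the filter, 33.8% were lower in both lines and 28.1% higher in both. The typical size of a difference between 2 arrays, as the scaled median absolute deviation over all compared genes, was 0.16 for the Hey1 line, 0.22 for the Hey2 line and 0.29 for the uninduced arrays against each other. Of the 9 compared Sox genes 5 exceeded it for the Hey1 line and 7 for the Hey2 line, counting differences of either sign, where 33.6% and 35.8% of all compared genes did. In the Hey2 line 4 of them (Sox4, Sox12, Sox13 and Sox17), at -0.22 to -0.23, exceeded it by little.

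**Figure D3:**
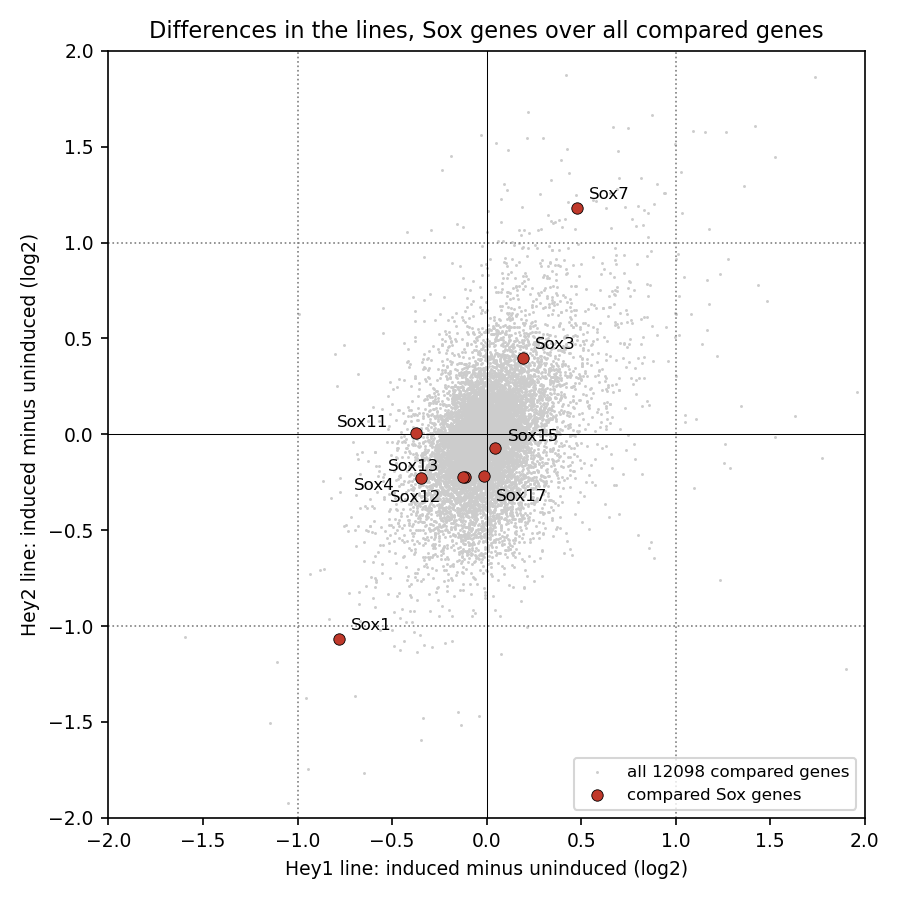
Log2 differences, labelled induced minus uninduced, with the Hey1 line on the horizontal axis and the Hey2 line on the vertical axis, for all 12098 compared genes in grey and the 9 compared Sox genes in red. Sox1 lies at -0.78 and -1.07 and Sox7 at 0.48 and 1.18, at the edge of the grey points, while the other Sox genes lie among them. Dotted lines mark 2-fold, and 12 genes lie outside the axes.

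Without induction, the lines differed in the Sox family most at Sox1. Of the 9 compared genes, only Sox1 differed by 2-fold or more between the uninduced arrays. It was lower in the Hey2 line, as were 1.13% of all compared genes by that much. Next came Sox7, Sox11 and Sox4, at -0.59, -0.56 and -0.44 on the log2 scale as Hey2 minus Hey1. The other 5 lay between -0.05 and 0.16. The arrays labelled induced differed by -1.37 at Sox1, -0.32 at Sox4 and -0.18 at Sox11, and by 0.12 at Sox7, in the same direction of subtraction. At their representative probe sets, Sox1, Sox4 and Sox11 were thus lower in the Hey2 line in both conditions. Sox7 was lower in it in the uninduced arrays only. Over the probe sets that reached the filter, the uninduced difference ranged from -1.09 to 0.21 for Sox1. It ranged from -0.56 to 0.07 for Sox11 and from -0.49 to -0.02 for Sox4. The Sox11 probe set 1429372_at was higher in the Hey2 line in both conditions, at 0.07 uninduced and 0.11 labelled induced.

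A response shared by both lines was tested in limma, with the line as a block and induction of Hey1 and of Hey2 taken as repeats of a single treatment. None of the 9 Sox genes passed an adjusted p of 0.05 (Benjamini-Hochberg over all 12098 genes), nor did any other gene (0%). The mean difference was -0.92 ± 0.11 (SE, 2 lines) for Sox1, with an adjusted p of 0.237 by limma, the lowest value of any gene, which 106 genes shared. It was 0.83 ± 0.20 for Sox7 (adjusted p = 0.301 by limma), 0.30 ± 0.10 for Sox3 (adjusted p = 0.347) and -0.29 ± 0.09 for Sox4 (adjusted p = 0.334). For the other 5, Sox11, Sox12, Sox13, Sox15 and Sox17, it lay between -0.18 and -0.01, with adjusted p from 0.447 to 0.956. At an unadjusted p of 0.05, limma counted 4 of the 9 (Sox1, Sox3, Sox4 and Sox7) and 13.2% of all compared genes. Sox7 was compared only through the arrays labelled induced, so its p-values are not independent of the level filter. The Sox genes were also chosen with earlier results of these data known, so an excess in this count cannot be read from it. With a trended and robust prior variance, limma called Sox1 (adjusted p = 0.00732) and Sox4 (adjusted p = 0.0367) lower, where 1.59% of all compared genes were called lower. Sox7 had an adjusted p of 0.0532 there. Over all the settings that used every array, the adjusted p by limma ranged up to 0.9999 for each of these genes, its value without the block. The labels do not mention separate cultures, and the p-values then cover only the spread among these 4 samples, which may be technical.

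**Figure D4:**
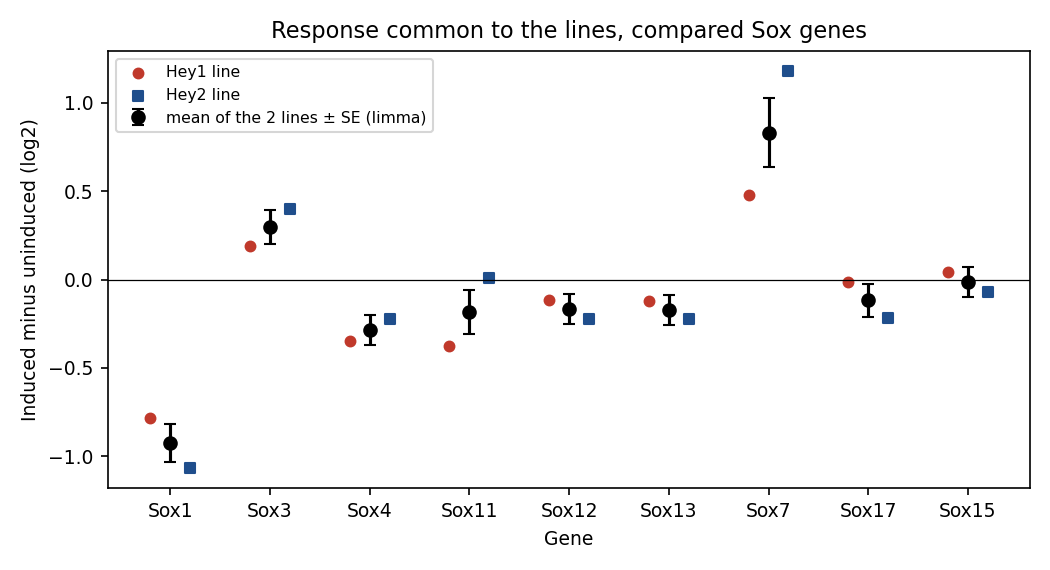
Mean log2 difference over the lines with its standard error (limma, black) for the 9 compared Sox genes, between the differences of the Hey1 line (circles) and of the Hey2 line (squares). The mean is -0.92 ± 0.11 for Sox1 and 0.83 ± 0.20 for Sox7, and from -0.29 to 0.30 for the other 7 genes.

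The genes with a pattern most like that of Sox1 and Sox7, which had the lowest and the highest mean difference of the family, were sought among all compared genes by the Euclidean distance over the 4 log2 values, each gene centred on its own mean. Nearest to Sox1 were Nrp2, a receptor gene for semaphorins (distance 0.24), Lrrc31 (0.28), Vax2os (0.29), the transcription factor gene Myb (0.41) and Cnpy1 (0.44). Nrp2 read 9.80 in the Hey1 array labelled induced and 10.30 in the Hey1 uninduced array, and 8.43 in the Hey2 array labelled induced and 9.45 in the Hey2 uninduced array. Like Sox1 it was lower in the array labelled induced of each line and lower in the uninduced Hey2 line than in the uninduced Hey1 line. These shared directions follow from the choice of Nrp2 by the same values. Nearest to Sox7 were the chromatin remodeller gene Atrx (0.10), the nicotinic receptor gene Chrnb1 (0.13), the kinetochore genes Knl1 (0.15) and Cenpe (0.16), and Zfp943 (0.16). Atrx read 11.02 in the Hey1 array labelled induced and 10.58 in the Hey1 uninduced array, and 11.26 in the Hey2 array labelled induced and 10.05 in the Hey2 uninduced array. With 4 arrays such a likeness is a description of these samples.

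Of the remaining Sox genes on the array, Sox2 included, those that were compared had lower values in the Hey2 array labelled induced. Their direction in the Hey1 line depended on the processing. Of the 10 remaining genes 7 were compared, and 2 of the 7 were lower in the Hey1 array labelled induced, where 53.1% of all compared genes were. In the Hey2 array labelled induced 7 of 7 were lower, where 54.3% of all were. Sox2 differed there by only -0.0059, which turned to 0.02 with the other line as reference. Sox6 and Sox9 reached the filter only in the Hey2 uninduced array, so their lower values in the Hey2 array labelled induced follow from the filter. Below the filter, Sox30 had 0.24, Sox8 had 0.15 and Sox5 had -0.21 in the Hey2 line. The median differences of the 7 were 0.09 and -0.37, and 0 of them reached 2-fold in either line. The Hey1 median turned to -0.07 with the mean of probe sets and to -0.14 with the other line as reference. The Hey2 median was -0.0059 with the filter at the 75th percentile and -0.09 with the other line as reference. The largest mean differences were those of Sox10, a neural crest gene, at -0.09 and -0.37, and of Sox21, a neural progenitor gene, at 0.09 and -0.51. With the mean of probe sets the Hey1 difference was -0.26 for Sox10 and turned to -0.09 for Sox21. None passed the limma test, and 0 of 7 had an unadjusted p under 0.05.

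Genes of the tissues in which these Sox factors act were counted in the same way, and 0 of them passed the limma test over all genes. The counts at an unadjusted p under 0.05 are to be read against the 13.2% of all compared genes with such a p. Of 18 neural genes, 12 were compared, with median differences of -0.05 for the Hey1 line and -0.10 for the Hey2 line, and 0 reached 2-fold. The adhesion gene Ncam1 had -0.64 and -0.50, and the Notch effector gene Hes5 had -0.24 and -0.37. These were the 2 of the 12 with an unadjusted p under 0.05 by limma. With the mean of probe sets the Ncam1 differences were -0.27 and -0.17, and with the other line as reference its Hey1 difference turned to 0.14. Of 21 endoderm genes, 9 were compared, with medians of -0.10 and 0.01, and 0 reached 2-fold. The Hey1 median turned to values between 0.02 and 0.12 with the other level filters, with the mean of probe sets and with the other line as reference. Lower values in both lines were read for 4 of the 9 (Lamb1, Hnf4a, Ttr and Eomes), where 35.5% of all compared genes were lower in both. Higher values in both were read for 4 (Hhex, Col4a1, Sparc and Amn), where 28.1% of all were. The laminin gene Lamb1 had -0.11 and -0.61, and Hnf4a, a transcription factor gene of endoderm, had -0.12 and -0.52. Both Hey2 values of Hnf4a lay below the filter, at 5.33 labelled induced and 5.85 uninduced. With the mean of probe sets the Hey2 difference of Lamb1 was -0.33, and with the other line as reference the Hey2 difference of Lamb1 turned to 0.05 and the Hey1 difference of Hnf4a to 0.25. Neither had an unadjusted p under 0.05, and the 2 of the 9 that did were Sparc, a gene of a matrix protein, at 0.19 and 0.33, and the transthyretin gene Ttr, at -0.25 and -0.26. Of 18 endothelial genes, 12 were compared, with medians of 0.03 and -0.28, which turned to -0.24 and 0.0051 with the other line as reference, and 0 reached 2-fold. The von Willebrand factor gene Vwf had -0.43 and -0.98, the transcription factor gene Gata2 had -0.44 and -0.64, and 5 of the 12 had an unadjusted p under 0.05, namely Vwf, Gata2 and Erg, which were lower in both lines, and Pecam1 and Etv2, which were higher in both. With the other line as reference the Hey2 difference of Vwf turned to 0.84. Both Hey1 values of Vwf lay below the filter, at 5.07 labelled induced and 5.50 uninduced. Erg reached the filter only in the Hey2 uninduced array (6.28), so its direction in the Hey2 line follows from the filter. All 7 genes described elsewhere as carrying a joint element for Sox2 and Oct4 were compared, with medians of -0.02 and -0.0059. Among them the Nodal antagonist gene Lefty1 had -0.94 and -1.74, the only difference of 2-fold or more. Fbxo15, an F-box gene of embryonic stem cells, had 0.23 and 0.29, and these 2 of the 7 had an unadjusted p under 0.05. The medians of the 7 lay close to 0 and turned sign in the Hey1 line with the mean of probe sets (0.02) and in the Hey2 line with the other line as reference (0.04).

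The 3 fibroblast markers that reached the filter (Thy1, Loxl1 and Col1a2) had a mean log2 value of 6.66 in the Hey1 array labelled induced and 6.26 in the Hey1 uninduced array, and of 5.97 in the Hey2 array labelled induced and 5.87 in the Hey2 uninduced array. Differences in the Hey1 and Hey2 lines were 0.67 and 0.22 for Thy1, 0.42 and 0.47 for Loxl1, and 0.09 and -0.38 for Col1a2. Loxl1 reached the filter only in the Hey2 array labelled induced (6.29), so its direction in the Hey2 line follows from the filter. The list medians were 0.42 and 0.22, and with the mean of probe sets 0.46 and 0.47. Without the level filter, over all 10 markers, they were 0.01 and -0.12. The collagen genes Col1a1 and Col3a1 stayed below the filter on all arrays. The mean of the 12 compared neural genes was 7.43 in the Hey1 array labelled induced and 7.53 in the Hey1 uninduced array, and 7.33 in the Hey2 array labelled induced and 7.43 in the Hey2 uninduced array. The part of either in the differences of the Sox genes was not tested.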

How the data were processed

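Total RNA of murine embryonic stem cells was measured on 4 single-colour Affymetrix arrays, 1 per group, and samples were grouped by their titles. Per the labels, the authors summarised each probe set with RMA, and the deposited values are on the log2 scale, as their range of 2.67 to 15.2 shows. The version of RMA, the probe set definitions and the build are not given in the labels used here. Once sorted, the values of all arrays agreed within 0.0024, so a shift of all genes together cannot be seen.

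The platform annotation gave 34958 of 45101 probe sets a single symbol, 932 several and 9211 none, and only the first were used. The symbols of all 10 Sox genes matched the RefSeq gene table of GRCm38.p6. Levels, the filter at 6.05 and the probe set that stands for a gene are as stated above. Differences are in log2 units, labelled induced minus uninduced, or Hey2 minus Hey1 for the uninduced arrays. The common response was fitted on all 12098 compared genes with limma 3.58.1 under R 4.3.3, using lmFit and eBayes with the line as a block, 1 residual degree of freedom and Benjamini-Hochberg adjustment at 0.05. The fit was tested on simulated data with planted changes and noise of the same size in all genes. Real arrays need not have such noise, so this does not show how the fit performs on these data. Everything else was computed in Python 3.11.15 with numpy 2.4.6 and pandas 2.3.3.

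The members and gene lists were chosen with earlier results of these data known. By rule, the text names the probe sets of the 10 Sox genes, the 5 genes nearest in pattern to the members with the lowest and the highest mean difference, and the 2 compared genes with the largest mean difference from each of the Sox-Oct element, neural, endoderm and endothelial lists. Other genes named were chosen after their values were seen. Alternatives were every probe set on its own, the mean of all probe sets of a gene, a level filter at the 75th percentile of values (8.31) or none, an offset of 32 on the linear scale, centring on the median, cyclic loess, the uninduced array of the other line as reference, no block, a trended robust prior and leaving out each array.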

Additional observations from a re-analysis of the deposited data

Results flagged for a closer look

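Of the 10 Sox genes, 3 had differences of opposite sign in the 2 lines at their representative probe set. Among the compared genes these were 2 of 9, beside 36.1% of all compared genes. These gaps rest on 1 pair of arrays per line and were not tested. Sox11 was lower in the array labelled induced of the Hey1 line (-0.375) and almost level in the Hey2 line (0.0071), which is -0.382 as Hey1 minus Hey2. Sox15 had 0.045 and -0.070 in the same order, a gap of 0.115. Sox18 had 0.42 and -0.18, a gap of 0.600, with all 4 values below the level filter.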

How the results depend on the processing

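Of the 9 compared Sox genes, the counts at 2-fold or more were 0 in the Hey1 line, 2 in the Hey2 line (Sox1 and Sox7) and 1 between the uninduced arrays (Sox1). These counts were the same without the level filter, with every probe set on its own, with centring and with cyclic loess. With the filter at the 75th percentile, which leaves 2 of the genes (Sox4 and Sox11), with the mean of probe sets and with the offset of 32, the counts of the Hey2 line and of the uninduced arrays became 0. With the uninduced array of the other line as reference, the Hey1 count became 1 (Sox7) and the Hey2 count 1 (Sox1). The count of Sox genes that passed the common response test was 0 in the main setting, 2 (Sox1 and Sox4) with the trended robust prior, and 0 in the other alternatives. Without 1 array, in fits without the block, it ranged from 0 to 0, and the mean difference ranged from -1.61 to -0.24 for Sox1, from 0.53 to 1.12 for Sox7, from 0.15 to 0.44 for Sox3, from -0.51 to -0.07 for Sox4, from -0.25 to -0.09 for Sox12, from -0.25 to -0.10 for Sox13 and from -0.21 to -0.02 for Sox17. The mean difference turned to 0.095 for Sox11 without the Hey1 uninduced array, with -0.46 as the lowest value without 1 array, and for Sox15 to 0.0080 with cyclic loess and 0.055 without the Hey2 induced array, with -0.080 as the lowest, each of them uncalled. The cause of these changes was not tested. Over all genes, the counts at 2-fold or more of 57 (Hey1 line), 112 (Hey2 line) and 237 (uninduced arrays) became 24, 46 and 124 with the filter at the 75th percentile and 33, 52 and 139 with the offset. With the other line as reference the first 2 became 387 and 229. With every probe set on its own the Hey2 and uninduced counts became 214 and 418. Genes passing the common response test numbered 0, against 433 with the trended robust prior, 4 with the filter at the 75th percentile and 5 without the Hey2 induced array. No paired analysis by replicate number was possible because the labels carry no such numbers and each group has 1 array. Signal near the level filter limits Sox3, Sox7, Sox17 and Sox18, and Sox1 in the Hey2 array labelled induced (5.98). The offset of 32 moved the Hey2 difference of Sox1 to -0.79 in place of -1.07.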

Other observations

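Within the endothelial list, genes stood on both sides. The transcription factor gene Etv2 read 7.96 in the Hey1 array labelled induced and 7.53 in the Hey1 uninduced array, and 7.78 in the Hey2 array labelled induced and 7.26 in the Hey2 uninduced array. The adhesion gene Pecam1, which embryonic stem cells also express, had differences of 0.61 and 0.34. The receptor gene Kdr had -0.08 and -0.55, and Erg, an endothelial transcription factor gene, had -0.18 and -0.58. Etv2, Pecam1, Kdr and Erg were chosen after their values were seen, and none of them passed the limma test over all genes (adjusted p from 0.268 to 0.429). Of the 12 compared endothelial genes, 5 were lower in the Hey1 array labelled induced and 8 in the Hey2 array labelled induced, where 53.1% and 54.3% of all compared genes were.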
